A study of Mus musculus with 12 samples.

Results

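Box C/D snoRNAs are the set of small nucleolar RNAs described here through the short fragments of them that small RNA-seq recovered from mouse embryonic stem cells (ESCs). The members are the rows of the deposited table named Snord or SNORD that lie outside the imprinted Dlk1-Dio3 domain of chromosome 12 and held 15 or more reads summed over the 12 libraries. That rule found 123 members among 32101 rows. A total of 347 rows carried such a name, of which 20 lay inside Dlk1-Dio3 and 327 outside it. The members were thus chosen by their summed reads, so their overall abundance is a description and not a finding.

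The libraries came from 3 genotypes, and all 12 are labelled as E14 ESCs. There were 6 wild type (WT) libraries, 2 libraries of Dnmt1 -/- cells (Dnmt1 KO) and 4 libraries of Dicer/Dnmt1 -/- cells (Dicer/Dnmt1 KO). Dnmt1 encodes the enzyme that copies DNA methylation at replication, and Dicer is the ribonuclease that cuts miRNA precursors. The study's methods describe deletion by a Cre recombinase that tamoxifen switches on in cultured cells, so the treatment of each library is known only as far as its genotype label. The methods also place the line in which Dnmt1 was deleted in another mouse strain than E14, so a difference of line and the genotype cannot be told apart in the comparisons with WT. Titles name a letter A or B and, for WT and Dicer/Dnmt1 KO, a number, and libraries that share the number are called a culture here. Dnmt1 KO is 1 culture. The labels do not say whether A and B were grown separately, so p-values may measure technical spread alone.

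Box C/D snoRNAs carry the conserved C and D boxes near their ends, which bind the methyltransferase fibrillarin with Nop56, Nop58 and a protein of the kink-turn family. The bases just upstream of a D box pair with ribosomal RNA and so choose the nucleotide whose ribose is methylated. A few members take part in cutting the ribosomal RNA precursor. In mammals most are released from introns of host genes, many of which encode ribosomal proteins or are noncoding RNAs such as Gas5 and Snhg1. They are made without Dicer, and they are known to leave stable short fragments. Levels below are levels of those fragments and do not measure the full-length snoRNAs.

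Whole-library facts set limits on every value. Library reads ran from 8710 to 245184, so that 1 read was worth 4.08 to 114.81 RPM, the reads of a row scaled to a common library size, and a count of 0 allows up to 3 reads, which is 12.2 to 344.4 RPM. The lowest depths were those of Dicer/Dnmt1 KO 1B, WT 2A and Dicer/Dnmt1 KO 1A, with 8710, 16142 and 24491 reads. The Dnmt1 row held 0 to 18 reads per library and the Dicer1 row 0 to 3, so neither deletion could be read from its gene, but the share of counts in miRNA rows averaged 39.3% ± 14.3 over the 6 WT libraries, 52.4% ± 1.47 over the 2 of Dnmt1 KO and 8.97% ± 2.62 over the 4 of Dicer/Dnmt1 KO (all SD). ESC miRNAs of the Mir290 and Mir302 clusters summed to between 28683 and 93275 RPM in WT and between 55926 and 99648 RPM in Dnmt1 KO, and to 1221 to 3797 RPM in Dicer/Dnmt1 KO. Rows of the Mir290 cluster made up most of that sum, which does not describe the Mir302 cluster. Mir302d, its row with the most reads, held 22 and 25 reads in Dnmt1 KO A and B, of 67678 and 107607 library reads. It held 74 in WT 3A and 4 in WT 2A, of 72163 and 16142 library reads. Of 10 miRNAs of fibroblasts and other differentiated cells, the fibroblast markers Mir199a-1, Mir199a-2 and Mir214 had 0, 1 and 16 reads over all libraries, while the summed level of the list was 9854 to 15470 RPM in WT, 41313 to 49188 RPM in Dnmt1 KO and 12528 to 40771 RPM in Dicer/Dnmt1 KO. Mir21, Mir22 and Mir143 made up most of that sum. The part of other cells, such as feeder cells, in the results below was not tested.

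WT culture 2, the pair titled E14 2, stood apart from the other WT libraries. In WT 2A only 82 of the 123 members had a read, against 119 in WT 2B and at least 121 in each of the other 4 WT libraries. The counts of calls and the medians below are therefore given with and without this pair, as are single values where leaving it out changed a call.

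The sequences of 10 members show what the fragments were cut from. All were read from mouse build NCBIM37, the build of the files, and are printed 5′ to 3′ with the C box (TGATGA) and the D box (CTGA) in capitals where a script found them. The first 4 are the members with the most reads over all libraries. Snord99 lies at chr4:131866606-131866679 (plus strand) in Snhg12, SNORD44 at chr1:162966813-162966872 (plus strand) in Gas5, Snord12 at chr2:166890776-166890865 (plus strand) in 1500012F01Rik and SNORD25 at chr19:8798486-8798550 (plus strand) in Snhg1. The annotation places all 4 in an exon of at least 1 transcript of the host.
Snord99: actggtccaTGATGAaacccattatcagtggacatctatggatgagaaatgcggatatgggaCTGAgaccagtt
SNORD44: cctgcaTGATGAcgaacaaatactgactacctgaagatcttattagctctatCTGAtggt
Snord12: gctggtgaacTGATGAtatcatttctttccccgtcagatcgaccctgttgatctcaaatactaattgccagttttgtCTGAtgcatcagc
SNORD25: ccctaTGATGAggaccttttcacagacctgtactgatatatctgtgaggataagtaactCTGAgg

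The copies of U14 named Snord14c, Snord14d and Snord14e sit in Hspa8, the gene of a constitutive heat-shock chaperone, at chr9:40611666-40611751, chr9:40612078-40612163 and chr9:40612831-40612920 (all plus strand). They are shown because Snord14c and Snord14d are 97.7% identical over 86 bases. Counted from 1 at the 5′ end of Snord14c, the 2 differences were G47A and A49G, so a fragment that misses those bases cannot be assigned to 1 of them.
Snord14c: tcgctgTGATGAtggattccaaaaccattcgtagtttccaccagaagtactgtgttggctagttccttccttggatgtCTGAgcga
Snord14d: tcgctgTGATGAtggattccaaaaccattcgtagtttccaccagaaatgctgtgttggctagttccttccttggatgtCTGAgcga
Snord14e: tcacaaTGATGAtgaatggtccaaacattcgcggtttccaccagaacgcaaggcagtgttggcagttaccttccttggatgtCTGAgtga

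The next pair, SNORD20 and SNORD51, holds the most negative and the most positive difference, in that order, of WT cultures 1 and 3 minus WT culture 2. SNORD20 lies on the minus strand at chr1:88248583-88248662 in an intron of Ncl, the nucleolin gene, and SNORD51 on the plus strand at chr1:63225254-63225326 in an intron of Eef1b2, a translation elongation factor gene.
SNORD20: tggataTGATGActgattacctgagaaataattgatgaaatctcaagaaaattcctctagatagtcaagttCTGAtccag
SNORD51: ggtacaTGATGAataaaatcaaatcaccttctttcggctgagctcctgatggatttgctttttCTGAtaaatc

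The last sequence is that of SNORD127, a member that passed the test in comparisons of genotypes. It lies at chr12:66157560-66157645 (plus strand) in an intron of Prpf39.
SNORD127: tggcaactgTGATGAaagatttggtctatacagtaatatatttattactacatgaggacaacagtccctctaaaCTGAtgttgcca

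The class is defined by these boxes, so members chosen by its name had to hold them more often than their surroundings. The counts are a description. TGATGA began within the first 15 bases in 76 of 123 members (61.8%) and CTGA lay within the last 15 bases in 114 (92.7%), on the strand of the annotated gene, and 73 members (59.3%) held both. In windows of the same lengths moved 300 bases upstream, TGATGA was found in 1 of 123 (0.813%), CTGA in 11 (8.94%) and both in 0. Among 1031 rows of box H/ACA snoRNAs, the other class of snoRNA, 1 held both (0.0970%). The boxes are not particular to the members. Both were held by 160 of 204 box C/D rows outside Dlk1-Dio3 under 15 reads (78.4%). Those were 149 of 164 SNORD115 and SNORD116 rows (90.9%) and 11 of the other 40 (27.5%). The letters TGA occur in both motifs, but the C box was looked for at 1 end and the D box at the other, and a match describes letters only. Member lengths ran from 60 to 238 bases with a median of 76, and GC content from 28.8% to 65.1% with a median of 43.1%.

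Reads were spread unevenly over the members. Together they held 196402 reads, against 8520 for box H/ACA snoRNAs. The 10 members with the most reads held 44.9% of them, while 46 members had over 1000 reads, 15 had under 100 and the median was 638. A read was found in every library for 80 members. Per length, the mean level over the 12 libraries was highest for SNORD44, with 25321 RPM per 100 bases, followed by Snord99 with 19197, SNORD25 with 13697, SNORD29 with 10511 and Snord12 with 9580. That mean pools genotypes whose order differed. In Dnmt1 KO the order was SNORD44 with 14399 RPM per 100 bases, SNORD25 with 8352, SNORD20 with 7571 and SNORD58 copy 3 with 7132, while Snord99 had 4667 and Snord12 had 1131. SNORD44 and SNORD25 guide methylation of 18S ribosomal RNA, and Snord99, SNORD29 and Snord12 that of 28S. Across members, reads had a Spearman correlation of -0.28 with length and -0.15 with GC content, given as a description over 123 members that share libraries.

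The threshold fell in a gap. The members with the fewest reads were SNORD124 with 15, Snord7 with 28 and Snord89 with 30, and the rows just outside were another SNORD62 row with 6 reads and a SNORD116 row with 4. Of the 204 rows outside Dlk1-Dio3 that fell short, 197 had no read in any library. Most belonged to the tandem arrays of the imprinted Snurf-Snrpn domain, which are known chiefly from neurons. The 137 SNORD115 rows held 0 reads and the 27 SNORD116 rows held 6. How reads with several matches in the genome were placed is not given, and shared sequence was examined in members only. Low counts in these arrays therefore do not show that the snoRNAs were absent. From the Snurf-Snrpn domain Snord64 and SNORD107 were members, with 259 and 108 reads.

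Host genes grouped the reads. A noncoding host held 22 members and 42.8% of the members' reads, a ribosomal protein host held 35 members and 17.5%, another protein-coding host held 58 members and 35.1%, and 8 members (4.63% of reads) had no host in the annotation. Snhg1 carried 8 members with 31928 reads and Gas5 carried 9 with 31557. Those members accounted for 99.9% of the reads of the Snhg1 row and 99.8% of those of the Gas5 row, so that these host rows counted snoRNA fragments. Within Gas5 the members ran from 319 reads for SNORD24 copy 1 to 15270 for SNORD44, and within Snhg1 from 652 for Snord22 to 9209 for SNORD25. As shares of the members' reads, Gas5 took a mean of 16.3% ± 3.67 over the WT libraries, 17.1% ± 0.183 over Dnmt1 KO and 15.8% ± 4.37 over Dicer/Dnmt1 KO (SD, n = 6, 2 and 4). Snhg1 took 16.3% ± 2.44, 18.7% ± 3.00 and 16.1% ± 1.42 in the same order, so neither share differed from WT by more than about 1 SD of the WT libraries.

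Proteins that build the particle were read through their rows in the same table. Of 12 rows for such proteins, Nop56 held 4399 reads and Nop58 held 583, and the other 10 held between 0 and 20. Nop56 and Nop58 are themselves hosts. Their 3 and 4 members accounted for 4251 and 549 of those reads.

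The box C/D share of a library is the first measure that compares genotypes. A read is counted in each row it overlaps, host rows included, so that the counts in the table summed to 85.4% to 125.3% of the library reads. The share came to 13.96%, 18.3%, 5.61%, 6.65%, 17.1% and 17.2% of the counts in the table in WT 1A, 1B, 2A, 2B, 3A and 3B. The shares were 7.18% and 6.55% in Dnmt1 KO A and B. The Dicer/Dnmt1 KO libraries held 23.9% (1A), 25.1% (1B), 28.5% (2A) and 25.9% (2B). On this measure all 4 Dicer/Dnmt1 KO libraries lay above all others, and both E14 2 libraries lay beside Dnmt1 KO rather than beside the other WT libraries. Over library reads, WT and Dicer/Dnmt1 KO overlapped. There WT 1B had 229118 RPM in members, above Dicer/Dnmt1 KO 1A with 226451 and 2B with 220967. The widest 95% Wilson interval was that of Dicer/Dnmt1 KO 1B, from 24.2% to 26.0%, and covers counting error only.

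**Figure D1:**
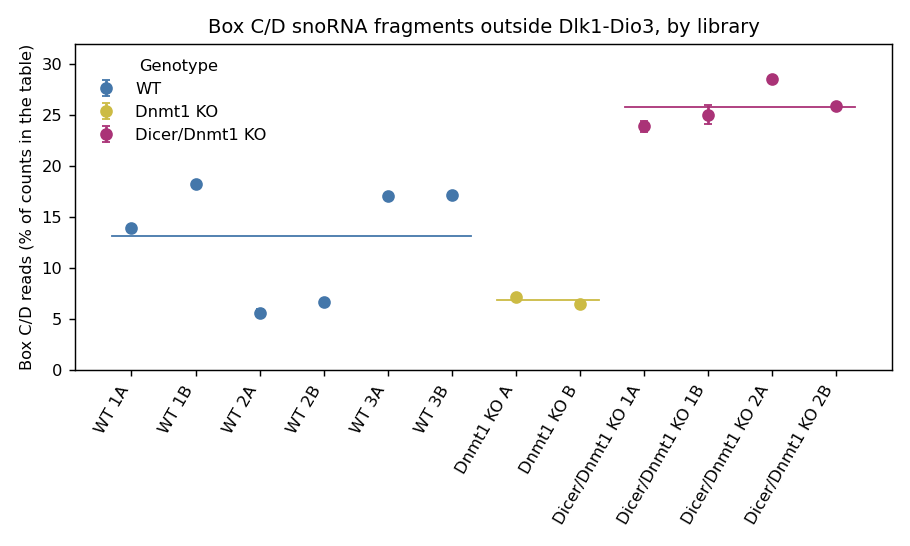
Reads of the 123 box C/D snoRNAs as a percentage of the counts in the table (y axis) in each of the 12 libraries (x axis), coloured by genotype. Points are libraries with 95% Wilson intervals and lines are group means. The Dicer/Dnmt1 KO libraries lie between 23.9% and 28.5%, and WT 2A and 2B lie at 5.61% and 6.65%.

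The mean share was 13.1% ± 5.62 for WT, 6.87% ± 0.449 for Dnmt1 KO and 25.9% ± 1.96 for Dicer/Dnmt1 KO (SD, n = 6, 2 and 4), and no test was run on it. A share of a library falls when another class rises, and the miRNA share moved the other way. Over the counts outside miRNAs the box C/D share was 20.8% ± 5.52 in WT, 14.4% ± 1.39 in Dnmt1 KO and 28.4% ± 1.90 in Dicer/Dnmt1 KO. The 4 Dicer/Dnmt1 KO libraries lay at 26.8% to 31.1% and the highest WT library at 26.4%. That gap is narrow, since the 26.8% came from Dicer/Dnmt1 KO 1B, the shallowest library with 8710 reads, and no counting interval was taken on this measure. Dnmt1 KO, at 15.4% and 13.5%, lay inside the WT range of 12.2% to 26.4%. Members per box H/ACA read, a ratio that needs neither total, were 23.3 ± 6.33, 15.7 ± 3.01 and 25.9 ± 7.75 in the same order. The Dicer/Dnmt1 KO range of 18.9 to 32.9 overlapped the WT range of 12.9 to 30.8. Without E14 2 the WT share was 16.6% of the counts in the table. With bulk libraries, fewer cells that make a fragment and less fragment per cell cannot be told apart.

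For tests on single members, reads were scaled between libraries by trimmed means of log ratios (TMM) and log2(RPM + 10) was compared in 1 limma model over the 683 features that passed a filter on low values. Of the 123 members 113 passed, and 10 did not reach 111.3 RPM in 2 libraries. The 683 features include these 113 members, host rows such as those of Snhg1 and Gas5, and miRNA rows. Shares and medians over all features are therefore not those of an independent or unaffected background. The filter is on RPM, so that Snord89 with 30 reads passed through shallow libraries while members with up to 65 reads did not. In 7 of the 113, SNORD127 and SNORD107 among them, fewer than 2 WT libraries reached that level. Fold changes are on the log2(RPM + 10) scale, which understates changes at low levels, and a member was called at a Benjamini-Hochberg adjusted p under 0.05 over all 683 features. The 3 comparisons share groups, so they are not independent of each other.

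In Dicer/Dnmt1 KO against WT, which asks what the combined loss changed, 2 of 113 members were called higher and 0 lower, by limma. Among all features tested, 5.12% were called higher and 19.0% lower, so the members' share of 1.77% higher did not exceed the background. A total of 10 members (8.85%) had an unadjusted p under 0.05, beside 33.2% of all features, and voom, limma's version for read counts with a weight for depth, called 5 higher and 0 lower, beside 7.61% and 20.5% of all features. The median fold change of the 113 was 0.29, beside -0.09 over all features. Without E14 2, 7 members were called higher and 1 lower, beside 9.24% and 20.3% of 660 features, and the median was 0.14, beside -0.16. With library reads alone in place of TMM the median of all features was 0.61 and that of the members 1.03, with 15 called higher and 0 lower, beside 12.3% and 17.0% of all features (13.3% of the members higher). Without the 3 libraries under 50000 reads 6 were called higher and 1 lower, beside 9.20% and 23.5%. The members' median stood above that of all features by 0.42 with library reads alone and by 0.38 with TMM. Without the 3 libraries under 50000 reads it stood above by 0.32.

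Snord85 was the member called in both comparisons with Dicer/Dnmt1 KO. Its levels were 118.3, 131.0, 62.0, 92.7, 166.3 and 118.1 RPM in WT 1A to 3B, 73.9 and 55.8 RPM in Dnmt1 KO A and B, and 571.6, 688.9, 457.2 and 252.2 RPM in Dicer/Dnmt1 KO 1A to 2B. The 4 Dicer/Dnmt1 KO libraries lay above all 8 others, with no overlap. These are small counts, 6 to 38 reads in Dicer/Dnmt1 KO. The fold change was 1.16 (SE 0.34, limma adjusted p = 0.0217) against WT and 1.72 (SE 0.46, limma adjusted p = 0.0113) against Dnmt1 KO. Without E14 2 the values were 1.38 (adjusted p = 0.00553) and 2.05 (adjusted p = 0.00131). Leaving out WT 1A or WT 3B ended the call against WT (limma adjusted p up to 0.0686), and against Dnmt1 KO it was above the threshold without WT 1A, 3A or 3B or either Dnmt1 KO library, up to 0.331 without Dnmt1 KO B. With the culture as a random block the adjusted p was 0.0740 against WT and 0.0431 against Dnmt1 KO.

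SNORD127 was called higher in both knockouts, but it passed the filter on low values only through knockout libraries, since no WT library reached 111.3 RPM, so it had to differ and its calls are no support for a difference. Its levels were 48.9, 13.8, 0, 28.5, 13.9 and 69.5 RPM in WT 1A to 3B, 162.5 and 158.0 RPM in Dnmt1 KO, and 245.0, 229.6, 220.7 and 59.7 RPM in Dicer/Dnmt1 KO 1A to 2B. Both Dnmt1 KO libraries lay above all 6 WT libraries, while Dicer/Dnmt1 KO 2B fell inside the WT range. Only 88 reads lie behind these levels, with 0 to 12 in each WT library. The fold change was 2.78 (SE 0.75, limma adjusted p = 0.0400) for Dnmt1 KO and 1.87 (SE 0.59, limma adjusted p = 0.0317) for Dicer/Dnmt1 KO, and Dicer/Dnmt1 KO against Dnmt1 KO gave -0.90 (SE 0.79, limma adjusted p = 0.578). Leaving out 1 library ended the call for Dnmt1 KO in 5 of 12 cases (WT 1B or 3A, Dnmt1 KO A or B, Dicer/Dnmt1 KO 2A; adjusted p up to 0.380 without Dnmt1 KO A) and for Dicer/Dnmt1 KO in 7 of 12 (WT 1B or 3A, Dnmt1 KO A or B, Dicer/Dnmt1 KO 1A, 1B or 2A; adjusted p up to 0.0759 without WT 3A). Neither call held with the culture as a random block (adjusted p = 0.174 and 0.111).

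**Figure D2:**
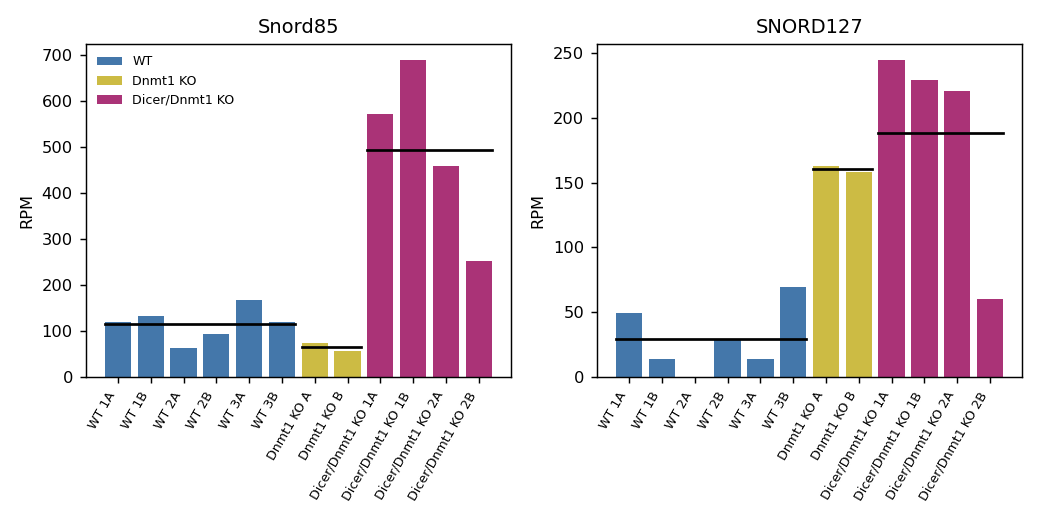
Levels of Snord85 and SNORD127 in RPM (y axes) in each of the 12 libraries (x axes), as 1 bar per library coloured by genotype, with a black line at each group mean. Snord85 lies at 252.2 to 688.9 RPM in Dicer/Dnmt1 KO and at 166.3 RPM or less elsewhere, and SNORD127 lies at 59.7 RPM in Dicer/Dnmt1 KO 2B, inside the WT range.

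In Dnmt1 KO against WT, which asks what loss of Dnmt1 alone changed, SNORD127 was the 1 member called higher and 0 were called lower, beside 6.59% and 0.293% of all features. An unadjusted p under 0.05 was found for 8 members (7.08%), beside 18.3% of all features, and voom called 1 higher and 1 lower, beside 10.7% and 1.02%. With library reads alone 0 were called, beside 4.83% higher and 0.146% lower. The median of the members was -0.11, beside 0.13 over all features. This comparison turned most on E14 2. Without that pair 3 members were called higher and 23 lower, beside 14.5% and 12.9% of all features, and the median was -0.75, beside -0.16. The members' share of lower calls was then 20.4%. Without the 3 libraries under 50000 reads, which include WT 2A but not WT 2B, 5 members were called higher and 12 lower, beside 17.7% and 9.20% of all features (4.50% and 10.8% of the members).

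The calls without E14 2 were chosen after their values were seen and are given as a description. Of the 26, 12 were also called when the 3 libraries under 50000 reads were left out instead of the pair. The 3 higher ones were SNORD127, SNORD20 and SNORD27. SNORD20, which guides methylation of 18S ribosomal RNA, gave 2.42 without E14 2 and 1.45 (SE 1.27, limma adjusted p = 0.606) with it. SNORD27, a member of Snhg1, gave 1.62 and 1.39 (SE 0.54, limma adjusted p = 0.186). The lower ones held SNORD51 with -4.32, SNORD12 copy 2 with -3.45, SNORD11 with -3.05 and Snord95 with -2.83 without E14 2, and none of these passed with all 12 libraries. They rest on few reads in Dnmt1 KO A and B, with 8 and 10 for SNORD51 and 9 and 24 for SNORD12 copy 2. SNORD11 held 1 and 0 reads there, and Snord95 held 8 and 10.

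In Dicer/Dnmt1 KO against Dnmt1 KO, which asks what the loss of Dicer added, Snord85 was the 1 member called higher and 0 were called lower, beside 1.17% and 21.7% of all features. There were 6 members (5.31%) at an unadjusted p under 0.05, beside 27.4% of all features, and voom called 2 higher and 0 lower, beside 1.76% and 23.1%. With library reads alone 6 were called higher and 0 lower, beside 3.51% and 18.6%. The median was 0.46, beside -0.16 over all features, and 81 of 113 members lay above 0. Without E14 2, 25 members were called higher and 0 lower, beside 10.3% and 23.2% of all features, with a median of 0.80, beside 0.18, and the members' share of higher calls was 22.1%. Without the libraries under 50000 reads 24 were called higher and 1 lower, beside 11.2% and 27.4%. Neither group of this comparison holds E14 2, which entered only through the scaling and the shared estimate of the spread. Of the 25, 15 were also called without the libraries under 50000 reads, among them Snord85, Snord14c, Snord90, Snord19, Snord72 and SNORD36 copy 3.

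**Figure D3:**
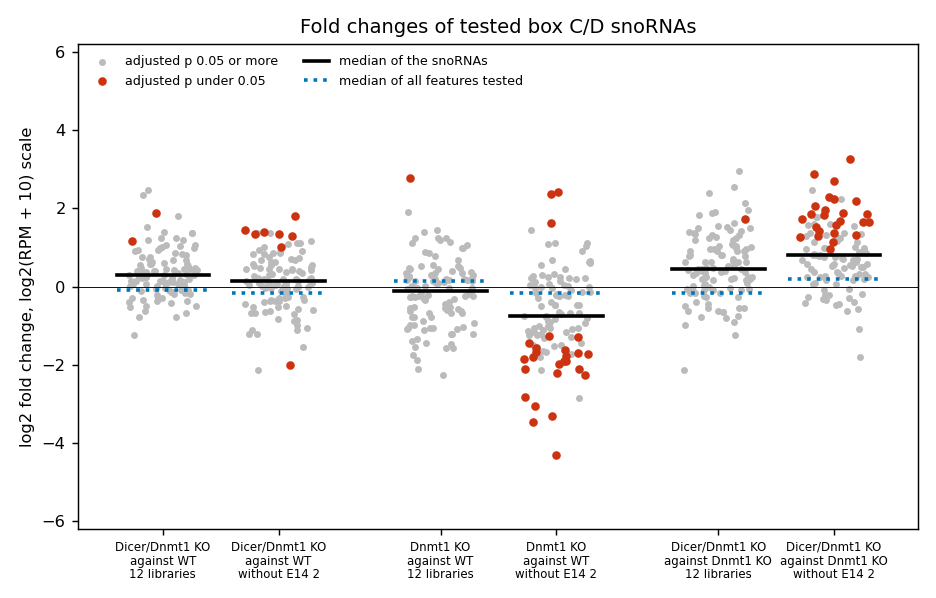
Fold changes of the 113 tested box C/D snoRNAs on the log2(RPM + 10) scale (y axis) in the 3 comparisons, each with all 12 libraries and without the pair E14 2 (x axis). Each point is a snoRNA, red at a limma adjusted p under 0.05, black lines are medians of the snoRNAs and dotted lines medians of all features tested. The number of red points rises from 2, 1 and 1 to 8, 26 and 25 without E14 2.

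The medians are given by kind of host. In Dicer/Dnmt1 KO against Dnmt1 KO the medians were 0.43 for 22 tested members in noncoding hosts, 0.45 for 33 in ribosomal protein hosts, 0.46 for 51 in other protein-coding hosts and 0.62 for 7 with no host. In Dnmt1 KO against WT they were -0.24, -0.11, -0.05 and -0.38, and in Dicer/Dnmt1 KO against WT 0.20, 0.19, 0.34 and 0.12. Without E14 2 the medians of the 3 kinds of host, in the same order, were 0.78, 0.79 and 0.81 in Dicer/Dnmt1 KO against Dnmt1 KO, -0.66, -0.71 and -0.75 in Dnmt1 KO against WT, and 0.19, 0.15 and 0.08 in Dicer/Dnmt1 KO against WT. The 9 members in Gas5 had a median of 0.63 and the 8 in Snhg1 one of 0.43 in Dicer/Dnmt1 KO against Dnmt1 KO, with 0 called in either, and 0.98 and 0.78 without E14 2, with 1 called in each. The 3 members in Hspa8 had medians of 2.35, -0.06 and 1.89 in Dicer/Dnmt1 KO against WT, Dnmt1 KO against WT and Dicer/Dnmt1 KO against Dnmt1 KO, with 0 called. Without E14 2 these were 1.01, -1.33 and 2.24, with 0, 0 and 1 called.

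The members with the most reads varied widely within genotypes. Snord99 had 8316, 30436, 2602, 3288, 26135 and 15272 RPM in WT 1A to 3B, 2586 and 4321 RPM in Dnmt1 KO, and 14169, 22618, 18903 and 21825 RPM in Dicer/Dnmt1 KO. Its WT libraries ran from about the level of Dnmt1 KO to above that of Dicer/Dnmt1 KO, with E14 2 beside Dnmt1 KO and WT 1B, 3A and 3B beside Dicer/Dnmt1 KO. Its fold changes were -1.38 (SE 0.69, limma adjusted p = 0.313) for Dnmt1 KO and 0.11 (SE 0.54, limma adjusted p = 0.917) for Dicer/Dnmt1 KO against WT. Without E14 2 Snord99 was called lower in Dnmt1 KO than in WT (-2.10, limma adjusted p = 0.0136) and higher with both genes lost than in Dnmt1 KO (1.84, adjusted p = 0.0160). SNORD44 had 9654, 15680, 4275, 9529, 16740 and 19622 RPM in WT, 9826 and 7453 RPM in Dnmt1 KO, and 17068, 38806, 24106 and 9555 RPM in Dicer/Dnmt1 KO. All 3 groups overlapped for it, and its fold changes were -0.04 and -0.23 for Dicer/Dnmt1 KO and Dnmt1 KO against WT and 0.19 between the knockouts. SNORD25 had 1425 to 9548 RPM in WT (median 6599), 6295 and 4563 RPM in Dnmt1 KO and 12117 to 17563 RPM in Dicer/Dnmt1 KO. Its Dicer/Dnmt1 KO libraries lay above all others in RPM, but after scaling the fold change against WT was 0.63 (SE 0.36, limma adjusted p = 0.260).

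Snord12, which guides methylation of 28S ribosomal RNA, varied between cultures and also between A and B of 1 culture. Its levels were 4454, 19128, 247.8, 684.7, 15936 and 10228 RPM in WT 1A to 3B, 502.4 and 1533 RPM in Dnmt1 KO, and 1307, 6889, 27496 and 15063 RPM in Dicer/Dnmt1 KO 1A to 2B. It was low in E14 2, Dnmt1 KO and Dicer/Dnmt1 KO 1A and high in Dicer/Dnmt1 KO culture 2. Against WT the fold changes were -1.89 (SE 1.39, limma adjusted p = 0.528) for Dnmt1 KO and 0.24 (SE 1.10, limma adjusted p = 0.914) for Dicer/Dnmt1 KO. Without E14 2 Snord12 was called lower in Dnmt1 KO (-3.31, limma adjusted p = 0.0417). SNORD28, which guides 18S methylation, and SNORD29, SNORD30 and SNORD81, which guide that of 28S, had fold changes of -0.62 to 0.43 in Dicer/Dnmt1 KO and -1.04 to -0.25 in Dnmt1 KO against WT, with 0 called over all 12 libraries.

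The members that take part in ribosomal RNA processing were called in no comparison over all 12 libraries. Without E14 2, limma called Snord14c (2.88, adjusted p = 0.0180) and Snord13 (1.26, adjusted p = 0.0237) higher with both genes lost than in Dnmt1 KO, and Snord22 (-2.27, adjusted p = 0.0222) lower in Dnmt1 KO than in WT. U14, which pairs with 18S ribosomal RNA and is needed for its processing, is represented by Snord14c, Snord14d, Snord14e and Snord14a. Snord14c had 1876, 2186, 0, 948.6, 2120 and 5753 RPM in WT, 945.7 and 446.1 RPM in Dnmt1 KO, and 3307, 4133, 18572 and 13630 RPM in Dicer/Dnmt1 KO. Its fold change in Dicer/Dnmt1 KO against WT was 2.47 (SE 1.41, limma adjusted p = 0.260), and 1.17 (adjusted p = 0.237) without E14 2. Snord14d had 2712, 1386, 0, 1213, 2564 and 11743 RPM in WT and 2450, 5052, 32115 and 12608 RPM in Dicer/Dnmt1 KO. The highest WT library exceeded both libraries of Dicer/Dnmt1 KO culture 1 there. Snord13 and Snord22 (U22) act on 18S ribosomal RNA and Snord118 (U8) in the processing of the large subunit RNAs. They had fold changes of 0.53 (SE 0.46), 0.36 (SE 1.12) and -0.06 (SE 0.40) in Dicer/Dnmt1 KO against WT, with limma adjusted p = 0.517, 0.870 and 0.938. Snord14a, from Rps13, had 56 reads and was not tested.

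Snord68, used in the study as a PCR control under the name snoRNA202, had 493.5, 786.1, 247.8, 128.4, 942.3 and 764.3 RPM in WT, 177.3 and 167.3 RPM in Dnmt1 KO, and 939.1, 574.1, 993.3 and 603.8 RPM in Dicer/Dnmt1 KO. E14 2 held the lowest 2 WT values, and Dnmt1 KO lay between them. Without E14 2 its fold change was -1.73 (adjusted p = 0.00891) for Dnmt1 KO against WT and 1.42 (adjusted p = 0.0137) for Dicer/Dnmt1 KO against Dnmt1 KO, while with all libraries it was -1.21 (SE 0.58, limma adjusted p = 0.287) and 1.08 (SE 0.61, limma adjusted p = 0.307). Snord64 and SNORD107 of the Snurf-Snrpn domain had fold changes of -0.51 (SE 0.69) and 1.25 (SE 0.89) in Dnmt1 KO against WT, with limma adjusted p = 0.758 and 0.498. Snord64 had 57.1 to 257.0 RPM in WT and 55.8 and 147.8 RPM in Dnmt1 KO, so the groups overlapped.

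**Figure D4:**
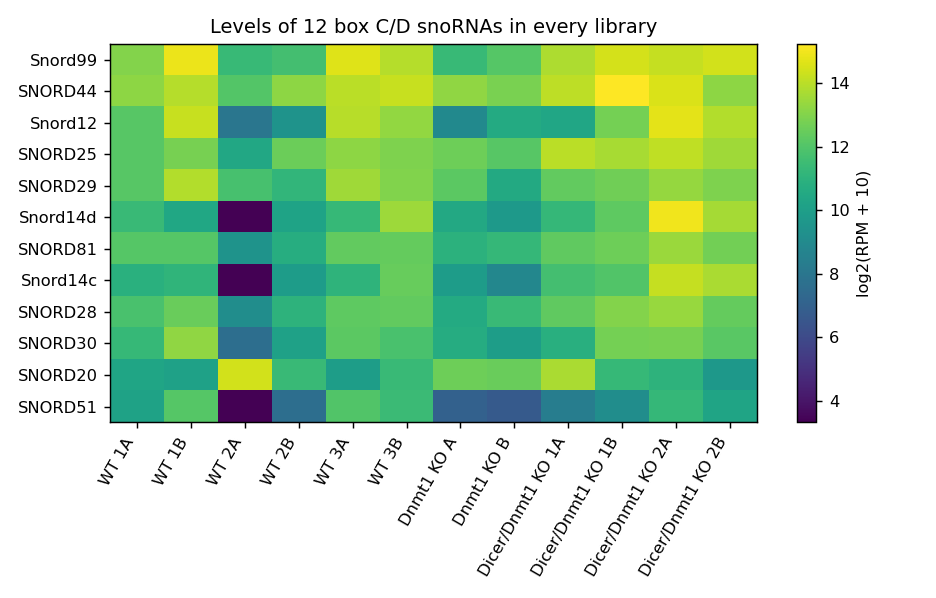
Levels of the 10 box C/D snoRNAs with the most reads, and of SNORD20 and SNORD51, as log2(RPM + 10) (colour scale) in each of the 12 libraries (columns). Snord12 and SNORD51 are low in WT 2A, WT 2B and Dnmt1 KO, and SNORD20 is highest in WT 2A, at 22116 RPM.

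The mix of members differed between libraries of 1 genotype. SNORD20 had 1264, 1110, 22116, 2660, 997.7 and 2668 RPM in WT 1A to 3B, 6324 and 5790 RPM in Dnmt1 KO, and 13638, 2526, 2065 and 816.2 RPM in Dicer/Dnmt1 KO 1A to 2B. It supplied 37.3% of the members' reads in WT 2A and 7.19% and 7.24% in the Dnmt1 KO libraries. SNORD51 went the other way, with 1150, 4420, 0, 185.4, 4116 and 2793 RPM in WT, 118.2 and 92.9 RPM in Dnmt1 KO, and 326.7, 574.1, 2428 and 1221 RPM in Dicer/Dnmt1 KO. Before scaling, both Dnmt1 KO libraries and both E14 2 libraries lay below all others for SNORD51. After scaling, WT 2B at 255.9 RPM lay above Dicer/Dnmt1 KO 1A at 191.8 RPM.

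Member levels were compared between libraries by Spearman correlation over 113 members, as a description. The 4 WT libraries of cultures 1 and 3 correlated at 0.87 to 0.97 with each other and at 0.87 to 0.96 with Dicer/Dnmt1 KO culture 2, but at 0.54 to 0.89 with E14 2. WT 2B was most like Dnmt1 KO B (0.92) and WT 3B most like Dicer/Dnmt1 KO 2A (0.96). Dicer/Dnmt1 KO 1A was most like Dnmt1 KO B (0.92). The nearest library was of the same culture for 3 of 12 libraries and of the same genotype for 6.

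Differences between cultures were compared within both genotypes that have more than 1. For each member the mean of WT cultures 1 and 3 minus WT culture 2 was set against Dicer/Dnmt1 KO culture 2 minus culture 1, which share no library. Over 113 members these differences had a Spearman correlation of 0.58 (0.60 over the 89 members with 300 reads or more), as a description. Upward differences over 1 on the log2 scale were seen in 62 members in WT and 42 in Dicer/Dnmt1 KO, and 5 and 4 members lay under -1, of which 1 was shared. Both medians were above 0, at 1.19 and 0.60, so upward lists overlap for that reason too. The 34 members in both upward lists were 54.8% of the WT list, beside 37.2% of all 113 members that lay over 1 in Dicer/Dnmt1 KO. They were 81.0% of the Dicer/Dnmt1 KO list, beside 54.9% of all 113 members that lay over 1 in WT. In opposite directions 0 members went past 1. SNORD51, SNORD12 copy 2, Snord14d and Snord12 lay at 5.71, 5.16, 4.62 and 3.80 in WT and at 2.48, 2.17, 3.05 and 3.29 in Dicer/Dnmt1 KO. WT 2A had 0 reads for SNORD51, SNORD12 copy 2 and Snord14d, which allows up to 185.9 RPM before scaling. Their WT differences rest in part on that library. For Snord14d, WT 2B at 1673 RPM after scaling lay inside the range of WT cultures 1 and 3, from 1378 to 10550 RPM. SNORD20 lay at -3.36 and -1.63. The difference in WT had a correlation of 0.16 with GC content. Depth moved with it, since WT 2A and both libraries of Dicer/Dnmt1 KO culture 1 were the shallowest, while WT 2B, with 140205 reads, was not. The part of depth in the result was not tested.

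**Figure D5:**
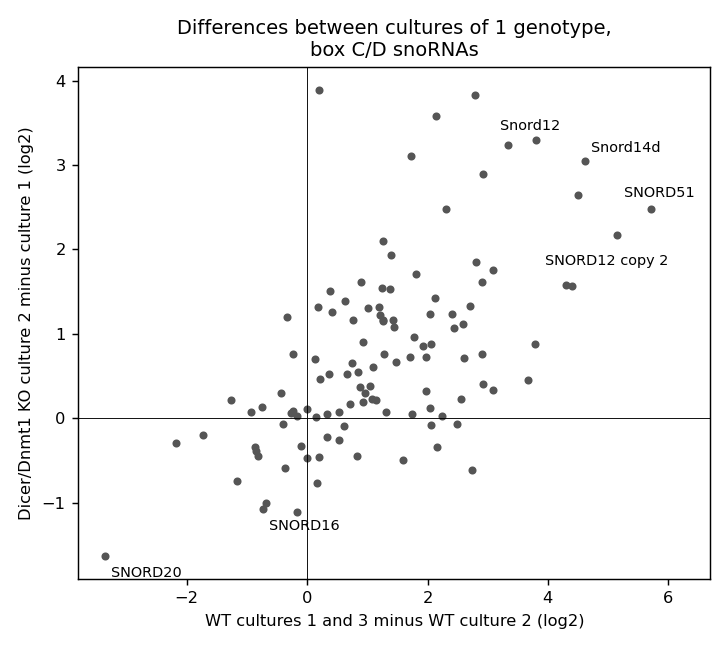
Difference between cultures within WT (x axis, cultures 1 and 3 minus culture 2) and within Dicer/Dnmt1 KO (y axis, culture 2 minus culture 1), in log2(RPM + 10) after scaling. Each of the 113 points is a box C/D snoRNA, and the points run from SNORD20 at the lower left to SNORD51 and Snord14d at the upper right.

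Shared sequence limits how far single members can be told apart. The share of a member's 20-base words that occur at 1 place in NCBIM37 had a median of 98.2%, but it was under 50% in 7 members. Those were SNORD58 copy 1, the SNORD62 member, Snord14c, Snord14d, Snord1b, SNORD93 and Snord88c. How reads with several matches were placed is not given in the sources used here. In 3 members, SNORD60, Snord4a and Snord42a, a gene lies on the opposite strand, and whether the counting used strand is likewise not given.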

How the data were processed

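Small RNA was sequenced from 12 ESC libraries. The submitters' processing notes name Trim Galore 0.3.5, Bowtie2 2.2.6 and NCBIM37. As the methods describe it, the authors kept reads of siRNA length and counted overlaps with SeqMonk. The deposited values were log2 RPM, with 0 reads written as 0.9 read, and not counts. Setting each column's lowest value to 0.9 read returned whole reads (within 0.05 read) for 100% of values in the 12 columns. A further 89 value columns belong to no sample and were not used.

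Groups came from the genotype labels. TMM factors (trimming 30% of log ratios and 5% of abundances) ranged from 0.419 to 1.96. A limma model (version 3.58.1, R 4.3.3), trended on the mean, took log2(RPM + 10) of 683 features. Each had 15 reads in all and reached 111.3 RPM (10 reads in a library of median depth) in at least 2 libraries. Code was tested on simulated data. Hosts and positions came from the GENCODE annotation of NCBIM37, in which all 32101 rows matched. Copies of a repeated symbol are numbered in genome order. The position, host and sequence of Snord85 are not reported here.

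Members, lists and tests were chosen with earlier results of these data known. Named members were the 10 with the most reads, every called member, Snord68, the processing snoRNAs, the Snurf-Snrpn members and those nearest the threshold. SNORD20, SNORD51, SNORD27, SNORD12 copy 2, SNORD11, Snord95 and the others named from fits that leave out libraries were chosen after their values were seen. Alternatives were other scalings, pseudocounts, no filter, voom, summed cultures, left-out libraries and blocks, and leaving out the libraries under 50000 reads was added after the data were seen. An uncalled value was taken as moved when it changed by over its SE. Intervals and floors cover counting error only.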

Additional observations from a re-analysis of the deposited data

Results flagged for a closer look

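Among 50 sets of values in WT or Dicer/Dnmt1 KO (levels of the named snoRNAs, the share of the counts in the table and members per box H/ACA read), 3 held a library whose gap to its nearest neighbour was a larger part of the whole range than Dixon's 95% critical value. Chance alone would mark about 1 set in 20. Snord14d had 11743 RPM in WT 3B, and the next WT library had 2712 RPM (gap over range 0.769). Snord118 had 917.7 RPM in WT 1A, and the next WT library had 457.3 RPM (gap over range 0.629). SNORD127 had 59.7 RPM in Dicer/Dnmt1 KO 2B, below 220.7 RPM in the nearest library (gap over range 0.869), and 2B was the deepest library of that genotype.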

How the results depend on the processing

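The counts of called box C/D snoRNAs depended on the processing. For Dicer/Dnmt1 KO against WT (2 called) they were 15 with library reads alone, 5 with voom, 8 without E14 2 and 7 without the libraries under 50000 reads, but 1 with a pseudocount of 1 and 0 with no filter, with A and B summed, with the replicate block and with culture as a random block. For Dnmt1 KO against WT (1 called) they were 2 with voom, 26 without E14 2 and 17 without the libraries under 50000 reads, and 0 with library reads alone, a pseudocount of 1, no filter, A and B summed, the replicate block and culture as a random block. For Dicer/Dnmt1 KO against Dnmt1 KO (1 called) they were 6 with library reads alone, 2 with medians of ratios, 2 with voom, 25 without E14 2, 25 without the libraries under 50000 reads, and 0 with no filter and with A and B summed. Where 0 were called in these fits, between 3 and 7 of 108 to 123 members had an unadjusted p under 0.05. In Dicer/Dnmt1 KO against WT these were 4 of 108 with A and B summed, beside 167 of 536 features. With culture as a random block they were 3 of 113, beside 188 of 683 features. With no filter they were 3 of 123, beside 773 of 14232. In Dnmt1 KO against WT they were 3 of 108 with A and B summed, beside 63 of 536. The share of all features called changed with the fit as well. Without E14 2 the members called higher and lower were 6.19% and 0.885% (all features 9.24% and 20.3%), 2.65% and 20.4% (14.5% and 12.9%), and 22.1% and 0% (10.3% and 23.2%) in the 3 comparisons. Without the libraries under 50000 reads they were 5.41% and 0.901% (9.20% and 23.5%), 4.50% and 10.8% (17.7% and 9.20%), and 21.6% and 0.901% (11.2% and 27.4%). With library reads alone the members called higher were 13.3%, 0% and 5.31% (all features 12.3%, 4.83% and 3.51%). Leaving out 1 library gave 1 to 4, 0 to 5 and 0 to 5 calls, with the highest count each time without WT 2A. Without WT 2A or E14 2 fewer samples enter the fit, and the cause was not tested further.

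The members' median for Dicer/Dnmt1 KO against WT was 1.03 with library reads alone and 0.73 with the replicate block, and that between the knockouts was 1.45 with library reads alone. For Dnmt1 KO against WT it was 0.0037 with TMM without miRNAs, -0.75 without E14 2, and between -0.42 and 0.19 with 1 library left out, so its sign was not stable (above 0 without WT 1A at 0.19, WT 3A at 0.17, WT 3B at 0.19 or Dnmt1 KO B at 0.09). The share of box C/D reads was 89.8%, 85.9% and 89.8% of the annotated snoRNA reads and 20.8%, 14.4% and 28.4% of the counts outside miRNAs in WT, Dnmt1 KO and Dicer/Dnmt1 KO. Of 1485 recomputed fold changes of the 23 named members, 1383 kept their direction and side of the threshold or moved by less than their SE, 37 lost and 19 gained a call, 46 moved further, and 0 called values reversed.

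Same-numbered WT and Dicer/Dnmt1 KO libraries deviated from their group means with correlations of -0.23 (1A), 0.11 (1B), -0.17 (2A) and -0.28 (2B), so the numbers do not pair the samples, and the replicate block is given for completeness. A and B of 1 culture correlated at 0.78 to 0.95 over all features.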
